A study of Drosophila melanogaster with 2 samples.

Results

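The chemoreceptor genes of Drosophila melanogaster were taken as the protein-coding genes whose Ensembl symbol begins with Or, Gr or Ir followed by a number and a letter. They comprised 179 of the 13945 protein-coding genes on the 6 chromosome arms that carry peaks, with 59 odorant receptor (Or), 60 gustatory receptor (Gr) and 60 ionotropic receptor (Ir) genes, and they had 199 annotated transcription start sites (TSSs). A further 6 Ir loci annotated as pseudogenes were left out, and Orco, the co-receptor of the Or family, has a symbol that the rule does not match.

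Or and Gr proteins are membrane channels of a shared insect superfamily, and Ir proteins descend from ionotropic glutamate receptors. Each sensory neuron of the antenna, palp, labellum, leg or larval head expresses a small number of these genes, often 1 ligand-specific receptor together with a broadly expressed co-receptor such as Orco, Ir25a, Ir8a or Ir76b. Many of the genes lie in tandem clusters or inside introns of unrelated genes, and most are transcribed in few cells of the animal.

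DNA bound by the tagged CG15269 protein was recovered by chromatin immunoprecipitation and sequenced (ChIP-seq) in whole embryos of mixed sex from a transgenic line that stably expresses CG15269 with a C-terminal GFP tag. The embryos were aged 6 to 18 h by the source name, and the labels hold a different value in their age field. The sample descriptions name an antibody against GFP and the antibody field names CG15269. There was 1 group with 2 biological replicates, numbered 2 and 3, and no other genotype, stage or untagged line was analysed here, so the values describe where the tagged protein was recovered in a mixture of all embryonic cell types. The authors deposited peak lists for each replicate and for both replicates together, the latter here called the joint list. Each of these 3 lists holds 30000 peaks. A further list of 7029 peaks was filtered by the irreproducible discovery rate (IDR), a measure of how alike peaks rank in 2 replicates. In size and lowest signal it matches the 7029 strongest peaks of the joint list. Its peaks need not each rank alike. The IDR peak near Ir48b ranked 17402 in replicate 2 and 4337 in replicate 3. The signal of a peak is the authors' own value on a scale that the sources used here do not give. The IDR peaks had signals of at least 154, and those of the joint list at least 34.6. The files hold no read totals, so depth is unknown, and genes and peaks are not replicates, so counts are given beside the same counts over all coding genes with no test.

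The DNA under the summits on which the results turn is shown first, as 121 bases centred on the summit, read from RefSeq's copy of genome release 6 with dm6 coordinates. Each is written on the strand of the chemoreceptor gene, with the 11 bases at the summit in capitals. The first 4 are summits within 500 bp of a chemoreceptor TSS with a peak in both replicates. Those of Or49a and the weaker of 2 at Gr77a are not shown. They are weak and lie in the joint list but not in the IDR list.
Gr63a (chr3L:3896786-3896906, minus strand): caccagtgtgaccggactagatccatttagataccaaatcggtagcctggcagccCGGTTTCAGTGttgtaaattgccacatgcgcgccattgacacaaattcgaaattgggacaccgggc
Gr21a (chr2L:781004-781124, plus strand): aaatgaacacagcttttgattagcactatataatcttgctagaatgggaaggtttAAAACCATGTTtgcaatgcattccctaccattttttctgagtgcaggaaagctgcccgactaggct
Gr77a (chr3L:20739525-20739645, minus strand): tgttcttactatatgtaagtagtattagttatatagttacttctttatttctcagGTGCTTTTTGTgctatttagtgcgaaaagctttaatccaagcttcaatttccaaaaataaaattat
Ir67c (chr3L:10434306-10434426, minus strand): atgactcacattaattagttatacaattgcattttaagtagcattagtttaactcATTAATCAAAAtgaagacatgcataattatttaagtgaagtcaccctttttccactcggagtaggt
The next 4 are IDR summits farther from a chemoreceptor TSS. The summits near Or88a and Gr89a lay in intergenic DNA, the one near Ir25a lay at the TSS of tank and the one near Gr64a at the TSS of CG11594.
Or88a (chr3R:14108763-14108883, plus strand): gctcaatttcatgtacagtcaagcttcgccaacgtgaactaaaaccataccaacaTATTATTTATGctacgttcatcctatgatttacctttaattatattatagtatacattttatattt
Gr89a (chr3R:16497551-16497671, minus strand): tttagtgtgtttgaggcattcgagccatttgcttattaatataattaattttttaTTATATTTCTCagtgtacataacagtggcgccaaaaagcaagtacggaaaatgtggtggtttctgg
Ir25a, at tank (chr2L:4837804-4837924, minus strand): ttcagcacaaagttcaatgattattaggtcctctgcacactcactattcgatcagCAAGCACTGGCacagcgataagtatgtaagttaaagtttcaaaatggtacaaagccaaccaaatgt
Gr64a, at CG11594 (chr3L:4025867-4025987, plus strand): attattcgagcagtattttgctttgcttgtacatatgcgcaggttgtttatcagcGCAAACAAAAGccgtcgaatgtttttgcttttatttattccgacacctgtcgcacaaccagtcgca
In these windows the share of A and T was 48.8% at Gr63a, 60.3% at Gr21a, 73.6% at Gr77a, 70.2% at Ir67c, 71.1% at Or88a, 66.1% at Gr89a, 61.2% at Ir25a and 58.7% at Gr64a. The Gr63a window holds the word of the promoter factor M1BP (GGTCACACT, on the strand opposite to that printed), centred 52 bases upstream of the summit. The TSS of the divergent gene Lamtor4 lay 54 bp from the summit on the same side, and the word stood on the strand of Lamtor4.

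No chemoreceptor gene had an IDR summit at most 500 bp from a TSS (0 of 179), where 20.6% of all coding genes did. None had an IDR summit inside the gene either, against 15.2% of all coding genes. Of all 7029 IDR summits, only 14 (0.199%) lay in a coding exon more than 500 bp from any TSS. The comparisons of gene bodies were not matched for the share of coding exon. Chemoreceptor genes are short, with a median length of 1691 bp against 2166 bp for all coding genes. Among coding genes of 1211 to 3963 bp, which leaves out the shortest and the longest chemoreceptor genes by their 5th and 95th percentiles and was chosen after seeing the data, 6.55% had an IDR summit inside. The summed length of the chemoreceptor gene bodies was 467 kb with 0 IDR summits, while other coding genes held 49.6 IDR summits per Mb. Much of this length came from Ir41a (104437 bp) and Ir40a (24851 bp), whose TSSs lay 401061 and 330714 bp from the nearest IDR summit.

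Widening the window brought in few chemoreceptor genes at first. Within 1 kb of a TSS there were 4 of 179 (2.23%), against 24.4% of all coding genes. These were Or88a at 622 bp, Or49a at 626 bp, Gr64a at 842 bp and Or9a at 996 bp. Within 2 kb there were 13 (7.26%, against 30.5% of all coding genes) and within 5 kb 33 (18.4%, against 45.5%). Within 10 kb there were 75 (41.9%, against 62.8%). The 33 genes were 7 Or, 16 Gr and 10 Ir genes, and the 75 were 14 Or, 30 Gr and 31 Ir genes. The median chemoreceptor gene lay 12294 bp from the nearest IDR summit, and the median coding gene 6110 bp. By family the median was 17559 bp for Or, 10059.5 bp for Gr and 9842 bp for Ir genes. The farthest were Ir41a, an amine receptor, at 401061 bp, Ir40a, a humidity receptor, at 330714 bp and Or42b, a receptor for food esters, at 108478 bp.

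**Figure D1:**
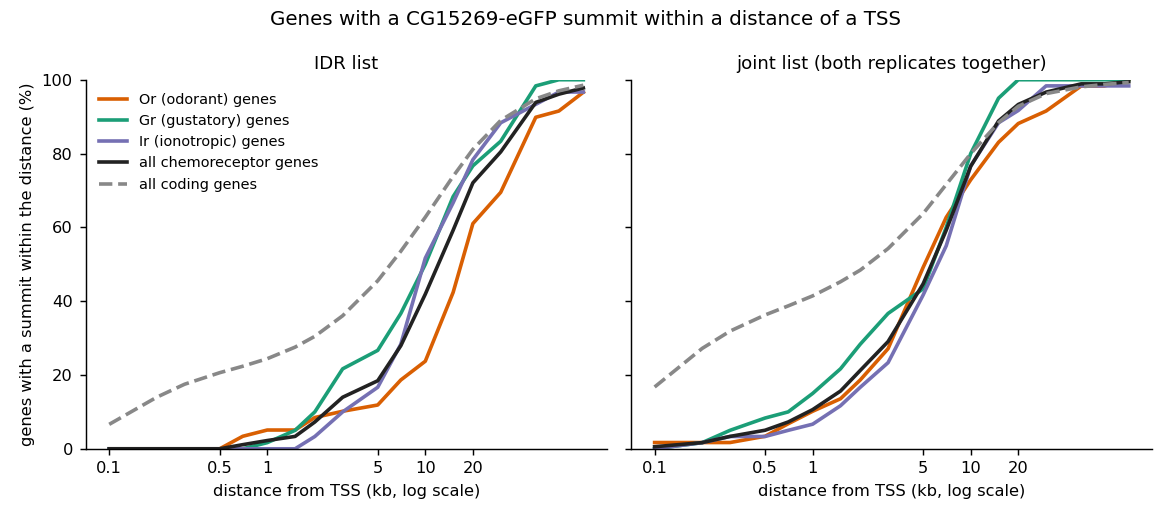
Share of genes (vertical axis, %) with a CG15269-eGFP summit within a given distance of any TSS (horizontal axis, kb, log scale), in the IDR list (left) and in the joint list (right), for the 3 receptor families, all 179 chemoreceptor genes and all 13945 coding genes (dashed). The chemoreceptor lines stay at 0% up to 500 bp in the IDR list, where all coding genes reach 20.6%, and lie below the dashed line up to 5 kb in both lists.

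The annotated starts of these genes bear on every TSS count. The gene model began at the start codon in 132 of the 179 chemoreceptor genes (73.7%), namely 43 Or, 40 Gr and 49 Ir genes, and in 515 of all coding genes (3.69%). For such models the start of transcription is not annotated, and its distance upstream is unknown. Among the 47 chemoreceptor genes whose model began upstream of the start codon, 0 had an IDR summit within 500 bp, against 2867 of 13430 such coding genes (21.3%). These 47 lay at a median of 15457 bp from the nearest IDR summit, and 10 of them (21.3%) had one within 5 kb, against 46.2% of the 13430. The 383 other coding genes whose model began at the start codon also had few summits, 8 of 383 (2.09%) within 500 bp, and 119 (31.1%) within 5 kb.

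The promoter windows, from 250 bp upstream to 50 bp downstream of the 5′ end of each gene model, were close to those of all coding genes in base composition and held some words less often. The share of A and T was 60.5% ± 5.82 in the chemoreceptor windows and 60.9% ± 7.74 in all coding windows (SD over promoters). The word of the DNA replication-related element, TATCGATA, stood on either strand in 1 of 179 chemoreceptor windows (0.559%, Gr68a), against 9.36% of all coding windows and 12.6% of those of genes with an IDR summit at most 500 bp from a TSS. The M1BP word GGTCACACT stood in 0 of 179, against 6.05% and 8.03%. Both words are known from promoters of broadly expressed fly genes. Of all coding genes with TATCGATA in the window 27.8% had an IDR summit within 500 bp, and of those without either word 19.4%, a share that is above the 0 of 179 chemoreceptor genes.

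TATAAA, the core of the TATA box, stood on either strand in 54.2% of chemoreceptor windows and 45.8% of all coding windows. The families varied, with the word in 46 of 59 Or, 18 of 60 Gr and 33 of 60 Ir windows. The initiator word TCAGT stood in 50.8% of chemoreceptor windows and 51.5% of all coding windows, and GAGAG, the word of GAGA factor, in 20.1% and 29.7%. With most of the chemoreceptor models starting at the start codon, the window need not hold the promoter. A word match in a window is a description of the letters and not a binding site.

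Weaker peaks did lie near chemoreceptor TSSs. In the joint list, 9 chemoreceptor genes (5 Gr, 2 Or and 2 Ir; 5.03%) had a summit within 500 bp of a TSS, against 36.3% of all coding genes. Replicate 2 listed 7 such genes (37.7% of all coding genes) and replicate 3 listed 9 (39.3%). The 9 of replicate 3 include Gr10a and Or10a, which share a TSS and were counted from the same summit, of signal 38.9. That summit had no matching peak in replicate 2 or the joint list. In 5 genes both replicates had a summit within 500 bp (32.1% of all coding genes): Gr63a, Gr21a, Gr77a, Ir67c and Or49a. Within 5 kb the joint list had a summit for 80 chemoreceptor genes (44.7%), against 63.7% of all coding genes, and the median distance to the nearest summit was 5879 bp for chemoreceptor genes and 2260 bp for all coding genes. The families were closer to each other here, with medians of 5151 bp for Or, 5900 bp for Gr and 6076.5 bp for Ir genes.

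By rank, 0 chemoreceptor genes had a TSS summit among the 7029 strongest peaks, 4 (2.23%) among ranks 7030 to 15000, 1 (0.559%) among ranks 15001 to 20000 and 5 (2.79%) among ranks 20001 to 30000. The shares of all coding genes were 20.6%, 13.0%, 6.13% and 8.73%. The chemoreceptor share was the lower one in each of the 4 ranges. The first range matched the IDR list in number of peaks, lowest signal (154) and coding genes counted (2875). Its shares therefore repeat the IDR counts above and are not a separate result. Gr77a counts in more than 1 range because it had 2 summits.

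**Figure D2:**
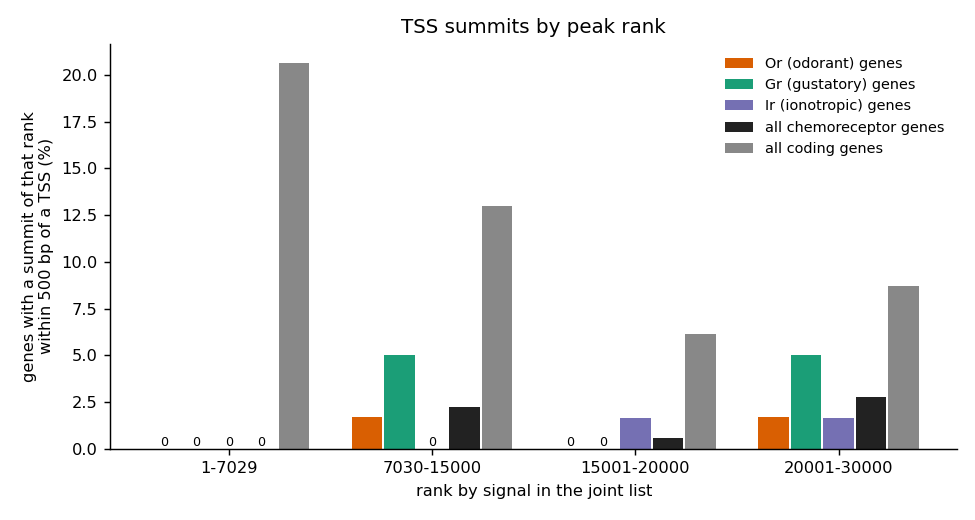
Share of genes (vertical axis, %) with a summit within 500 bp of a TSS, by the rank of the peak's signal in the joint list (horizontal axis), for Or, Gr and Ir genes, all 179 chemoreceptor genes and all 13945 coding genes. The chemoreceptor bars are 0 in the first range, where all coding genes stand at 20.6%, which repeats the IDR counts.

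The strongest of these weak TSS summits was at Gr63a, which together with Gr21a forms the carbon dioxide receptor. Its summit lay 243 bp upstream of the Gr63a TSS with a signal of 138 (rank 7936), and the matching peaks had signals of 65.1 in replicate 2 and 77.5 in replicate 3. The same summit lay 54 bp upstream of the TSS of Lamtor4, a divergently oriented gene for a subunit of the lysosomal Ragulator complex, so it cannot be given to Gr63a alone. The Gr63a locus also held 2 IDR summits, 1 of signal 372 at Ccz1, upstream of Gr63a, and 1 of signal 563 at Fie, on its other side. None of the 3 summits lay inside Gr63a.

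Gr21a, the partner of Gr63a, had a summit of signal 124 (rank 8898), with 68.8 in replicate 2 and 50.8 in replicate 3. It lay 212 bp upstream of 1 annotated TSS and inside the gene model, which has more than 1 start. The nearest IDR summit was 38533 bp away. Both genes of the carbon dioxide receptor had a weak summit within 500 bp of a TSS in each of the 3 lists of 30000 peaks. The one near Gr63a lay closer to the TSS of Lamtor4, so it may not belong to Gr63a. Neither gene had an IDR summit within 500 bp.

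Or49a, a receptor tuned to odours of parasitoid wasps, had a summit 424 bp upstream with a signal of 136, and 55.2 in replicate 2 and 66.7 in replicate 3. A stronger IDR summit of signal 227 lay further out at 626 bp upstream, and the 2 peaks overlapped. Gr77a had a summit 155 bp upstream with a signal of 103 and another 354 bp upstream with 52.8, beside 37.6 and 39.0 in replicate 2 and 59.3 and 31.3 in replicate 3. It lies inside an intron of CG13252, which held 3 summits of the joint list and no IDR summit. Ir67c had a summit 261 bp upstream with a signal of 70.8, and 29.0 in replicate 2 and 40.7 in replicate 3.

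The other 4 genes of the 9 had signals that lay near the bottom of the list or in few lists. Ir87a had 50.2 with both replicates together and 31.2 in replicate 3, with no peak in replicate 2. Gr89a had 39.5 and, in replicate 3, 26.3, again with no peak in replicate 2. Gr93d had 35.8 and, in replicate 2, 22.2, with no peak in replicate 3. Or1a had 35.8 and no matching peak in either replicate. Of the 9 genes, Gr63a, Or49a and Gr21a had a summit among the 10000 strongest peaks.

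Inside chemoreceptor gene bodies, 9 genes held a summit of the joint list, 5.03% against 26.6% of all coding genes. For coding genes of 1211 to 3963 bp the share was 16.2%. Per length the chemoreceptor genes held 23.6 such summits per Mb and other coding genes 222. The long genes Ir41a and Ir40a, with 104437 and 24851 bp of the chemoreceptor length, held none. The strongest summit there that lay more than 500 bp from any TSS of its gene was in Ir92a, an ammonia receptor, with a signal of 95.5, and 59.9 in replicate 3, while replicate 2 had no peak. Ir68a, a receptor for moist air, held 3 summits with signals of 74.7, 51.5 and 44.0. Or45b held 1 of 58.7, Gr22e 1 of 53.0, Or9a 1 of 41.9 and Gr33a, which is needed for bitter taste, 1 of 36.4.

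**Figure D3:**
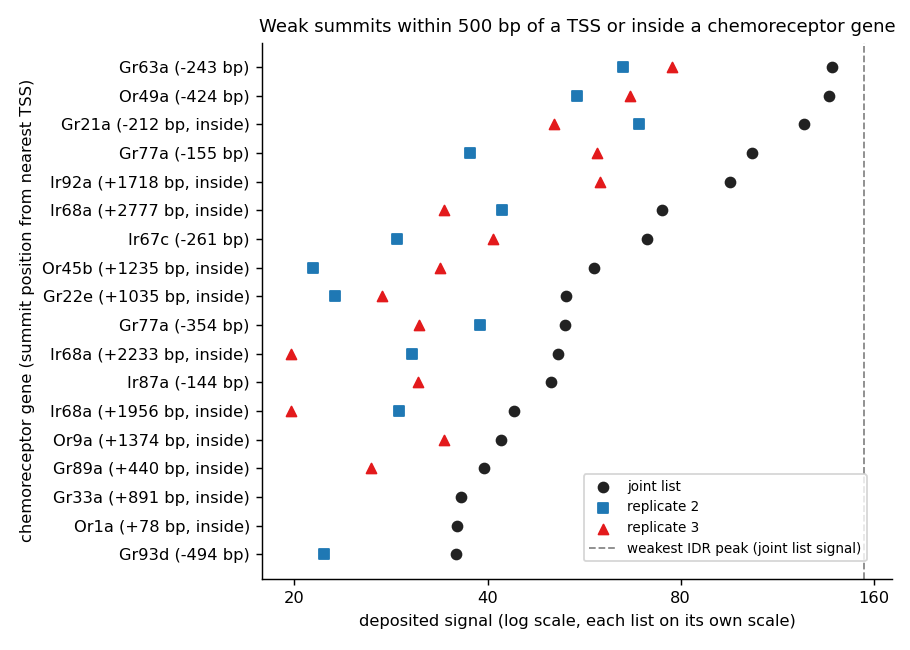
Deposited signal (horizontal axis, log scale) of the 18 summits of the joint list that lay within 500 bp of a chemoreceptor TSS or inside a chemoreceptor gene (vertical axis, with the position from the nearest TSS), and of the overlapping peak in replicate 2 and in replicate 3 where there was one. The values of the 3 lists are on their own scales and are shown side by side. The dashed line marks the weakest IDR peak at 154. All 18 black points must lie left of it, since no IDR summit lay at such a place.

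The IDR summits in the neighbourhood of chemoreceptor genes were of ordinary strength. Of the 7029 IDR summits, 42 lay within 5 kb of a chemoreceptor TSS, and their signals had a median of 304, against 288 for all IDR summits, and a range of 154 to 2195. A matching peak was present in replicate 2 for 41 of the 42 and in replicate 3 for all 42. The exception was 1 of 4 summits near Gr97a, with a signal of 218. The IDR list was itself filtered by how alike peaks rank in these replicates, so such matches largely follow from its making. The share with matches over all IDR peaks was not counted. Per length there were 29.3 IDR summits per Mb within 5 kb of chemoreceptor TSSs and 74.5 per Mb within 5 kb of other coding TSSs. In the joint list the densities were 133 and 267 per Mb.

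Many of the 42 summits lay closer to a neighbouring gene than to the chemoreceptor gene. By location, 17 (40.5%) lay within 500 bp of a TSS of any gene, against 39.2% of all IDR summits. Introns held 10 (23.8%, against 42.8%) and intergenic DNA 15 (35.7%, against 15.4%). Another coding gene's TSS lay within 500 bp of 15 summits, and for 28 it was nearer than the chemoreceptor TSS. Since no IDR summit lay within 500 bp of a chemoreceptor TSS, any summit that near a TSS was at another gene. The same shares around other coding genes were not counted. The share of A and T in 51 bases at the summit was 67.4% ± 10.7 for the 42 and 67.1% ± 11.2 for all IDR summits (SD over summits).

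**Figure D4:**
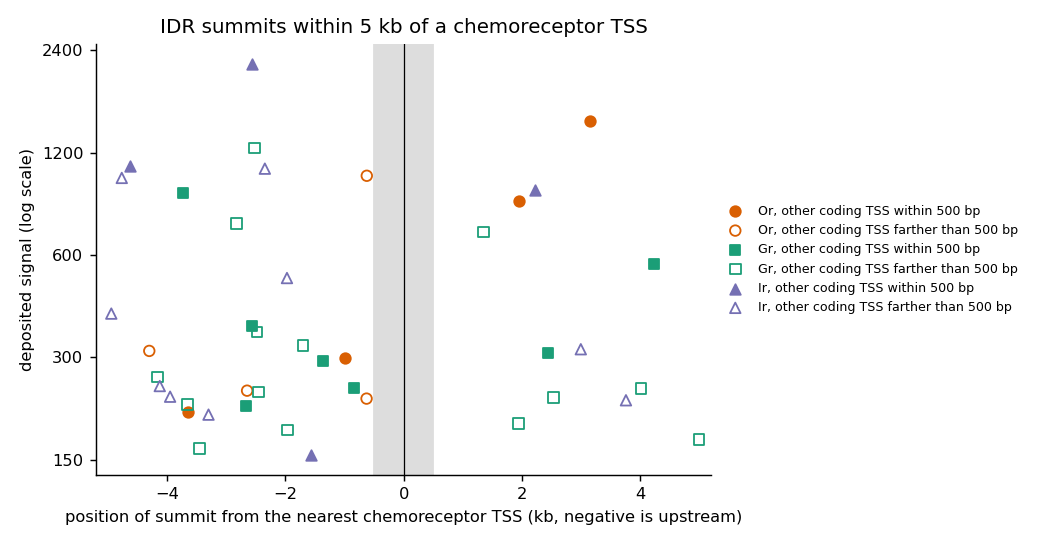
Position (horizontal axis, kb from the nearest chemoreceptor TSS, negative is upstream) and deposited signal (vertical axis, log scale) of the 42 IDR summits within 5 kb of a chemoreceptor TSS, by receptor family, filled where another coding gene's TSS lies within 500 bp. The grey band of 500 bp to each side of the TSS holds 0 summits, and 30 of the 42 lie upstream. The downstream side takes in the chemoreceptor gene bodies, which held no IDR summit. The upstream share around other coding genes was not counted.

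Among Or genes the strongest nearby summit was at Or85f, a receptor that also responds to wasp odours. The gene had 4 IDR summits within 5 kb, 1 with a signal of 1482 at 3148 bp, 112 bp upstream of the TSS of the ribosomal protein gene RpL34b, and 1 with 863 at 1950 bp, beside CG34117. Or88a, expressed in trichoid sensilla that detect odours of other flies, had the IDR summit nearest to any chemoreceptor TSS. It stood 622 bp upstream with a signal of 1026 (550 in replicate 2 and 469 in replicate 3), in intergenic DNA 502 bp from the TSS of CG12402. The Or9a summit of signal 299 stood at Neb-cGP, 64 bp upstream of its TSS. Or33a and Or33b shared a summit of 239 in intergenic DNA, and Or10a shared 1 of 183 with Gr10a, 1966 bp upstream of their common TSS.

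For 5 further Or genes, named for how well they are studied, the distance to the nearest IDR summit varied widely. The distance was 36634 bp for Or22a, which detects fruit esters, 13569 bp for Or47b, a receptor for fly odours, and 51198 bp for Or67d, the receptor of the male pheromone cis-vaccenyl acetate. It was 5243 bp for Or83a and 12507 bp for Or85a. In the joint list Or67d had a summit of signal 101 at 1400 bp upstream. Orco, outside the rule, lay 742 bp from an IDR summit and had a summit within 500 bp with a signal of 46.9 in the joint list and of 21.0 in replicate 3, with none in replicate 2.

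Among sugar receptors, Gr5a, the trehalose receptor, had an IDR summit of signal 1239 at 2520 bp upstream, in an intron of Tre1, a receptor gene needed for germ cell migration. Gr61a had a summit of 910 at 3725 bp, at the TSSs of CG13901 and CG13887. The Gr64 genes form the largest cluster, with 6 members over 9031 bp. A single IDR summit of signal 243 (126 in replicate 2 and 136 in replicate 3) lay 842 bp upstream of Gr64a, 84 bp inside CG11594, and no summit of the joint list lay between the first and last Gr64 TSS. The same summit was 2678 bp upstream of Gr64b and Gr64c. Gr43a, the fructose receptor, was 20800 bp from an IDR summit.

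**Figure D5:**
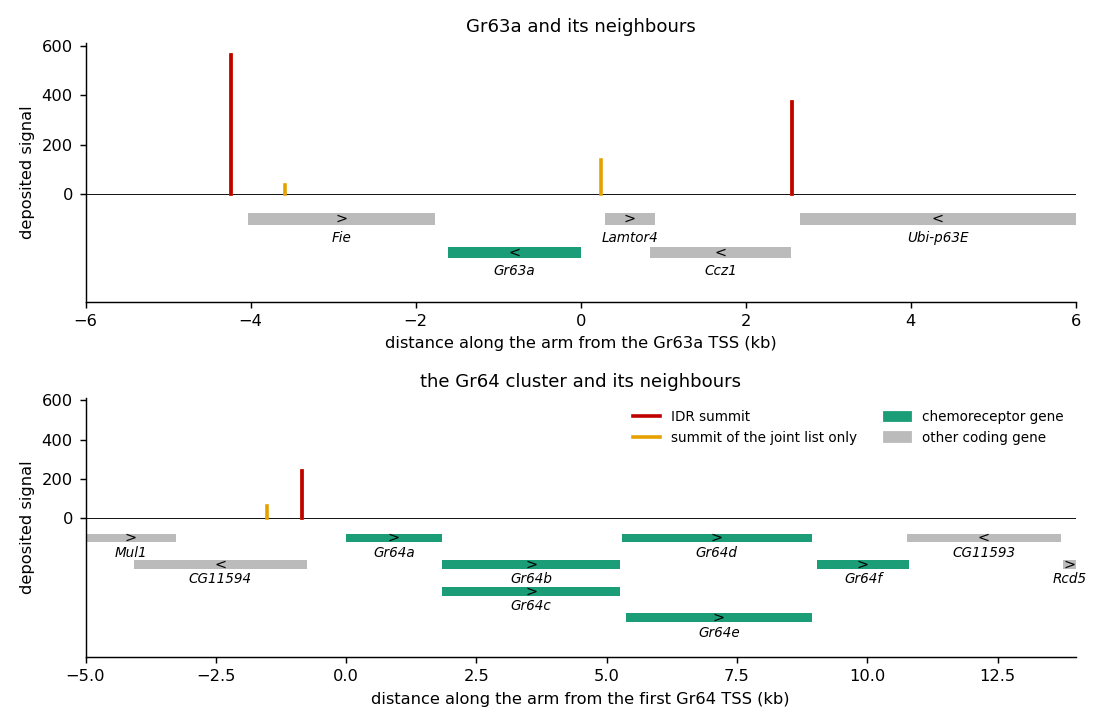
Chemoreceptor genes (green), other coding genes (grey, with > or < for the strand) and summits (vertical lines with the deposited signal on the vertical axis) around Gr63a (top) and the Gr64 cluster (bottom), by distance along the chromosome arm from the Gr63a TSS or the first Gr64 TSS (horizontal axis, kb). IDR summits are red and those found only in the joint list are orange, and none of either kind lies inside a green gene.

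Of the receptors for bitter compounds, Gr66a was 7971 bp from an IDR summit, and Gr93a, needed for the response to caffeine, had 3 within 5 kb, of signals 262, 191 and 162. With Gr93b, Gr93c and Gr93d the Gr93 genes had 6 IDR summits of 162 to 356, each in intergenic DNA and more than 5 kb from any other coding TSS. Gr97a had 4 of signals 218 to 324, in introns of CG5521 and Tsp97E. Gr89a had a summit of 700 at 1348 bp downstream of its TSS, beyond the end of the gene, and Gr94a had 1 of 743 in intergenic DNA and 1 of 309 at p53, which hosts it. Gr39b had 1 of 293 at 1362 bp upstream, at CG8665, and Gr47b 1 of 216 at 2664 bp upstream, at CG12384. Gr28b, with roles in heat and light sensing, was 13346 bp away.

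Among the co-receptors of the Ir family, Ir25a had the strongest IDR summit within 5 kb of any chemoreceptor gene. Its signal was 2195 (rank 137), with 1118 in replicate 2 and 1071 in replicate 3, and it lay 2564 bp upstream of Ir25a and 135 bp downstream of the TSS of tank. Ir76b was 1565 bp from an IDR summit of signal 154 (rank 7021), near the lowest of the list, at CG14187. Ir8a was 14893 bp and Ir93a, a co-receptor in temperature and humidity sensing, 9407 bp from an IDR summit.

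Other Ir genes had IDR summits at neighbouring genes or in intergenic DNA. Ir68b had 1 of 1093 at DEF8 and 1 of 930 at yps, a gene for a Y-box protein, and Ir76a 1 of 1011 in an intron of SREBP, a regulator of lipid synthesis. Ir94b and Ir94c had 1 of 513 in an intron of CG42390, and Ir94a had 1 of 403 in intergenic DNA 4940 bp upstream. Ir48b had 1 of 230 at 3946 bp upstream, at a gene for a long noncoding RNA. Ir67b had 2, of 317 and 224, in intergenic DNA more than 15 kb from another coding TSS.

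Tandem arrays of chemoreceptor genes had no summit of the IDR or the joint list between their outer TSSs. Joining members whose TSSs lay within 5 kb of each other gave 26 clusters with 73 genes, from 132 to 10267 bp between the first and last TSS. In 0 of the 26 did an IDR summit lie between the first and last TSS, and likewise 0 of the 26 held a summit of the joint list, over a summed span of 104 kb. These spans take in chemoreceptor gene bodies, which as a whole held 0 IDR and 23.6 joint summits per Mb. Other coding genes held 49.6 and 222 per Mb. The zeros thus overlap with that result, and the same count for clusters of other coding genes was not made. In the replicate 3 list 1 cluster, that of Ir94f, Ir94g and Ir94h, held 1 summit in its span, and in the replicate 2 list none did. In 6 clusters an IDR summit lay within 5 kb of a member. Clustered members lay at a median of 10342 bp from the nearest IDR summit and the 106 other members at 14755 bp.

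By chromosome arm, the 31 members on 2L had a median of 17565 bp to the nearest IDR summit, against 7016 bp for all coding genes of that arm. The 46 members on 2R had 11381 bp, against 6200.5 bp, and the 35 on 3L had 8954 bp, against 5206 bp. The 42 on 3R had 10670 bp, against 6463 bp, and the 25 on X had 15221 bp, against 5461.5 bp. The members were the farther ones on each of these 5 arms, and no member lies on chromosome 4.

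Of the chemoreceptor genes, 22 lay inside introns of 20 other coding genes, 18 of them on the strand opposite to the host. Among the 20 host genes, 8 (40%) had an IDR summit at most 500 bp from their own TSS, where 20.6% of all coding genes did, the strongest being Poxm, a gene for a muscle-forming transcription factor that hosts Or85a, with 1102. CG3777, the host of Or1a, had 958, nord, the host of Ir60a, 635, and p53, the host of Gr94a, 309. The others were Mondo, SLO2, CG13954 and Plp, with 262, 209, 247 and 225. A host must have an intron that holds a whole gene, and the share among coding genes of like length was not counted.

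An IDR summit lay in the same intron for 4 of the 22 members. Ir48c shared an intron of ths, a fibroblast growth factor gene, with summits of 1077 and 203, the nearer of which was 2345 bp from its TSS. Or1a shared a long intron of CG3777 with 4 summits of up to 958, the nearest at 19923 bp. Gr9a shared an intron of CG15312 with a summit of 264 at 6103 bp, and Ir47a an intron of SLO2 with 1 of 202 at 32384 bp. For Gr9a and Ir47a replicate 2 had no summit in the intron. The host introns, from 1797 to 63934 bp long, held 27.0 IDR summits per Mb, and coding introns at least as long as the shortest of them held 65.2 per Mb. In the joint list the densities were 138 and 301 per Mb.

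Chemoreceptor genes had few close neighbours. Another coding TSS lay within 500 bp of a TSS in 22 of the 179 (12.3%), against 30.9% of all coding genes. Among the 157 chemoreceptor genes without such a neighbour, 0 had an IDR summit within 500 bp, against 15.6% of the coding genes without one. Of coding genes with such a neighbour 31.8% had an IDR summit. The nearest other coding genes of the 179 were 138 distinct genes. Of these, 15 (10.9%) had an IDR summit at most 500 bp from a TSS, against 20.6% of all coding genes. The part of neighbour spacing, gene start annotation, gene length and share of coding exon in the low counts was not tested.

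Further lists of chemosensory genes and of related receptor families are set beside the 20.6% of all coding genes with an IDR summit within 500 bp. Of 52 odorant binding protein genes 3 (5.77%) had one, Obp99b with 473, Obp83g with 283 and Obp83cd with 174. Of 8 taste and pheromone ion channel genes, 25 genes for other proteins around the receptors, 13 ionotropic glutamate receptor genes and 7 rhodopsin genes, none had one. Among 17 regulators of sensory neuron fate or receptor choice, Xbp1, a transcription factor of the unfolded protein response, had one of 1022 (5.88% of the list). In the gene body but not within 500 bp of a TSS, IDR summits lay in bab1, bab2 and lz of that list, in CheB42c among the proteins around the receptors and in the glutamate receptor gene Nmdar1. In the joint list a summit lay within 500 bp of a TSS for 8 of the 52 odorant binding protein genes. It did so for 3 of the 8 ion channel genes and 4 of the 25 genes for proteins around the receptors. The counts were 4 of the 17 regulators, 3 of the 13 glutamate receptor genes and 0 of the 7 rhodopsin genes. The share of all coding genes was 36.3%.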

How the data were processed

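The authors deposited 4 peak lists of 2 replicates of 1 group on assembly dm6, per the labels. Peaks were called on each replicate and on both together, as the text files deposited with each sample say. Each peak has a signal deposited by the authors, whose scale no source used here states, and a deposited -log10 q-value, which was not used to rank. For the aligner, the peak caller and the IDR cut-off, names and values were "not given in the sources used here". Control alignments named in the labels are not analysed here. Depth is unknown, so no counting interval is given.

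A summit was the peak start plus the deposited summit offset, which counts from 1 in all 4 lists. Genes and TSSs came from Ensembl release 115 on 6 arms, without transposable elements. Genome sequence came from RefSeq. Promoter windows were cut from that genome at the 5′ end of each gene model, in place of a promoter table named in the design. A gene was counted where a summit lay within 500 bp, 1 kb or 5 kb of any of its TSSs, or inside it. Signals were not compared between lists. Peaks of 2 lists were matched where they shared at least 1 bp, taking the nearest summit.

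The members and the lists of other chemosensory genes were chosen with earlier results of these data known. Genes were named where they had an IDR summit within 5 kb, the strongest summits within 500 bp in the joint list (called on both replicates), or a place among the co-receptors and well studied receptors. The hosts with an IDR summit, the gene nearest to each summit and members of the other lists with a TSS summit were also named, as examples. Counts stand beside the same count over all coding genes, and no test was made. Alternatives were other windows, stronger peaks, other lists, whole-peak overlap, 1 TSS per gene and summits 1 bp further. The counting was tested on simulated data. Calculations used Python 3.11.15, numpy 2.4.6, pandas 2.3.3 and matplotlib 3.10.9.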

Additional observations from a re-analysis of the deposited data

How the results depend on the processing

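The count of 0 chemoreceptor genes with an IDR summit at most 500 bp from a TSS became 4 with a window of 1000 bp, 9 with the joint list and 2 with overlap of the whole peak. The share of all coding genes went from 20.6% to 24.4%, 36.3% and 22.2%. The count of 0 with an IDR summit inside the gene became 9 with the joint list (15.2% to 26.6% of all coding genes). The 33 genes with an IDR summit within 5 kb became 13 within 2 kb, 75 within 10 kb, 20 with the stronger part of the IDR peaks and 80 with the joint list. For all coding genes 45.5% became 30.5%, 62.8%, 32.5% and 63.7%. The 9 genes with a summit of the joint list within 500 bp became 3 at 200 bp, 19 at 1000 bp and 4 with the 15000 strongest peaks. The 5 genes with a summit in both replicates became 1, 11 and 3 under the same changes. Over all coding genes the former share went from 36.3% to 27.2%, 41.4% and 29.4%, and the latter from 32.1% to 22.1%, 37.7% and 25.2%. The median distance of 12294 bp became 25840 bp with the stronger IDR peaks and 5879 bp with the joint list, and the 4 members sharing an intron with an IDR summit became 2 and 7. The median of all coding genes, 6110 bp, became 10787 bp and 2260 bp. The cause of these shifts beyond the number of peaks and the width of the window was not tested.

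Leaving out 1 replicate meant using the peaks of the other replicate, as many as the IDR list holds or, for the joint list, all of them. The range was then 0 to 0 at a TSS, 0 to 0 inside the gene, 33 to 37 within 5 kb, 7 to 9 in the joint list, 12238 to 12902 bp for the median distance and 2 to 4 for shared introns. All coding genes had 20.8% to 21.8% at a TSS, 15.3% to 15.6% inside the gene and 45.4% to 47.6% within 5 kb. Their joint list share was 37.7% to 39.3%, and their median distance 5556 to 6182 bp. Leaving out 1 replicate cannot be done for the count in both replicates. Summits placed 1 bp further, an alternative chosen after seeing the data, gave 0, 33 and 9, as did the summits used here. No paired analysis was possible because the series has 1 group and no comparison between groups. Whole embryos mix cell types, peak lists leave out values under their minimum, and no control list was analysed here, so a place without a summit is only one without a listed peak.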
